A study of Mus musculus with 8 samples.

Results

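Lyz2, Fscn1, Ccl22, Cacnb3, Sirpa, Itgax, Tyrobp, Lst1, Cd68 and Plbd1 are transcripts best known from myeloid and dendritic cells, and all 10 were listed among the 11723 genes measured in RNA of sorted CD8 T cells. They were picked by symbol with their levels in these libraries known: WT replicate 2 and IL-2-KO replicate 3 stood above the other libraries. Those levels are therefore given as a description, with no test. A bulk library holds 1 value per gene and does not show which cell a transcript came from, and more cells of a type cannot be told apart from more RNA per cell.

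Myeloid cells (monocytes, macrophages, granulocytes) and dendritic cells are the phagocytes and antigen-presenting cells of the immune system. Dendritic cells take up antigen in tissues, mature, and carry it to the lymph node. There they show peptides on MHC class II to CD4 T cells and on MHC class I to CD8 T cells, and mature cells bundle actin with fascin and secrete chemokines that draw in T cells. A lymph node therefore holds these cells beside the T cells that a sort is meant to collect.

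BALB/c mice, an inbred strain, gave the CD8 T cells at 12 days of age, by cell sorting of their peripheral lymph nodes. There were 4 wild-type (WT) libraries and 4 from mice without interleukin-2 (IL-2-KO), with no other allele or agent named for either group. Interleukin-2 is a T cell growth factor that also maintains regulatory T cells. WT replicates 1 to 4 came from 115, 28.7, 1.3 and 1.3 sorted cells in units of 1000000, of 5, 5, 3 and 2 pooled mice. IL-2-KO replicates 1 to 4 came from 26.7, 42.6, 1.1 and 0.4 in the same unit, with no pooling stated. The 115 is high for 5 mice of this age and is given as labelled. The text on the whole series mentions spleen too, and puts heterozygotes with the WT mice, whereas each sample's own labels give lymph node and WT, which are used here. Il2 was listed at 5.65 to 6.25 in WT and 4.25 to 8.42 in IL-2-KO, and such a level cannot show which part of the gene was read, so the genotype labels were not checked by it.

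All levels below are counts per 1000000 scaled by TMM (CPM), a correction of library size. A CPM of 1 stood for 11.9 to 18.6 reads, with the fewest in WT replicate 2. WT replicate 2 and IL-2-KO replicate 3 stood apart over the whole table. A level of at least 5 and at least 3 times the mean of the other libraries of the genotype was reached by 92 genes (0.785%) in WT replicate 2 and 166 (1.42%) in IL-2-KO replicate 3, against 0 to 8 in each of the other 6 libraries. These 2 libraries shared 62 of the genes, 67.4% of the first list and 37.3% of the second. They came from 28.7 and 1.1 sorted cells in units of 1000000. The CD8 T cell genes were present in all 8 libraries: the summed level of 12 such genes was 8064 in WT replicate 2 and 7141 in IL-2-KO replicate 3, against 7344 to 8961 in the others.

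The sequences just before the transcription start of 5 of the 10 genes are shown because the genes were high in the same libraries and the letters of a few known motifs can be compared between them. They are from RefSeq on GRCm38.p6, whose promoter table had entries for 7 of the 10 genes. They run 5′ to 3′ on the strand of the gene, and any stretch of the window that lies in a GENCODE exon was left out. The positions are chr10:117282322-117282522 (minus strand) for Lyz2, chr5:142960105-142960342 (plus) for Fscn1, chr8:94745434-94745589 (plus) for Ccl22, chr7:128129300-128129546 (plus) for Itgax and chr11:69666171-69666420 (minus) for Cd68. Capitals mark GGAAGT or its reverse ACTTCC, letters within sites of ETS family factors, TGACGTCA, the cyclic AMP response element, and TGAGTCA or its reverse TGACTCA, the AP-1 element.
Lyz2: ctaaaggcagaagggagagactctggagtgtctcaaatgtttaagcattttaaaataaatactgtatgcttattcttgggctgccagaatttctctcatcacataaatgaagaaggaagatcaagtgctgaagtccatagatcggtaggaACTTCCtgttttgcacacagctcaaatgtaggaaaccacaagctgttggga
Fscn1: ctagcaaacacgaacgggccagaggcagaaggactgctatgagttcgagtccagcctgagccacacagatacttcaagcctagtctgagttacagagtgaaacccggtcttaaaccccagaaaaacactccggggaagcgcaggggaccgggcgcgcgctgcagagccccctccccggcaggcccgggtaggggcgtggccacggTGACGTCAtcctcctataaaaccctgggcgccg
Ccl22: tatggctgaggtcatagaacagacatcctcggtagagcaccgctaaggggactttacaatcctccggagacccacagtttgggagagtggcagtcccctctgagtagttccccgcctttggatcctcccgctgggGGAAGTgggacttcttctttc
Itgax: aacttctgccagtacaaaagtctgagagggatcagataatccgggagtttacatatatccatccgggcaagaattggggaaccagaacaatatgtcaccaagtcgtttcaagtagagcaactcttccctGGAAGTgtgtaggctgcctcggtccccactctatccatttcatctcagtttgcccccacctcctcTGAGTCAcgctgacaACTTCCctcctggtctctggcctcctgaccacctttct
Cd68: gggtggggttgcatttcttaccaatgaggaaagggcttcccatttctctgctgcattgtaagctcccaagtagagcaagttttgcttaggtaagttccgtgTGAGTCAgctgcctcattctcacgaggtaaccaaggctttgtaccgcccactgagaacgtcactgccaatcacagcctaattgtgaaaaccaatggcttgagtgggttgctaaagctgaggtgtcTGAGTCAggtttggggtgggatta
The 3 motifs were chosen after the sequences were seen and were searched on both strands, and none of the marked matches overlapped. GGAAGT was found in the 250 bases before the start of Lyz2, Ccl22, Itgax, Plbd1 and Cacnb3, in 5 of 8 promoters of the 7 genes, against 19.7% of all 32851 promoters in the table. TGACGTCA was found in that of Fscn1 (1.55% of all promoters) and the AP-1 element in those of Cd68 and Itgax (4.46%). A match is a run of letters, and binding was not measured.

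Fscn1, Ccl22 and Cacnb3 are typical of mature dendritic cells. Fscn1 (chr5:142960355-142973189) encodes fascin, which bundles the actin of dendritic cell protrusions. Fscn1 was at 2.04, 54.5, 1.04 and 0.904 CPM in WT replicates 1 to 4 and at 1.14, 1.08, 119.5 and 0.894 in IL-2-KO replicates 1 to 4. The 2 high libraries held 647 and 2223 reads of it and the other 6 held 15 to 34. Ccl22 (chr8:94745684-94751388) encodes a chemokine that attracts T cells bearing CCR4. Its levels were 1.80, 20.6, 1.09 and 0.543 CPM in the WT libraries and 3.55, 1.27, 134 and 1.45 in the IL-2-KO libraries. Cacnb3 (chr15:98628436-98644536) encodes a beta subunit of voltage-gated calcium channels. It was at 1.497, 19.2, 0.806 and 0.603 CPM in WT and 8.98, 4.94, 47.8 and 3.75 in IL-2-KO. Each of the 3 genes was highest in IL-2-KO replicate 3 and second in WT replicate 2, but the rest differed. Outside these 2 libraries Fscn1 and Ccl22 overlapped between the genotypes, whereas Cacnb3 was at 3.75 or more in IL-2-KO and at 1.497 or less in WT.

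Lyz2, Cd68 and Plbd1 are genes of myeloid granules and lysosomes. Lyz2 (chr10:117277541-117282272), the lysozyme of macrophages and granulocytes that cleaves bacterial walls, was at 0.569, 39.97, 0.230 and 0.543 CPM in WT and 2.04, 2.85, 296 and 1.34 in IL-2-KO. IL-2-KO replicate 3 alone held 5500 reads of it and the 3 low WT libraries 4 to 9.5. Some of these counts were not whole, so reads were divided between features or locations, which the values do not tell apart, and its close relative Lyz1 has no value here. Cd68 (chr11:69664213-69666170), a heavily glycosylated protein of late endosomes, was the most even of the 10. Its levels were 6.17, 18.7, 5.58 and 5.19 CPM in WT and 12.9, 8.14, 26.8 and 9.22 in IL-2-KO. Plbd1 (chr6:136612071-136662303), which encodes a lysosomal phospholipase B-like protein, was at 1.03, 10.1, 2.48 and 1.88 CPM in WT and 3.68, 2.30, 25.3 and 1.91 in IL-2-KO. Outside the 2 high libraries the genotypes did not overlap for Lyz2 and Cd68, with IL-2-KO on the higher side, and they overlapped for Plbd1.

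Sirpa, Itgax, Tyrobp and Lst1 encode surface receptors, adhesion molecules and adaptors. Sirpa (chr2:129591042-129632228) is the inhibitory receptor for CD47 on macrophages and on a subset of dendritic cells. It was at 0.368, 12.4, 0.690 and 1.09 CPM in WT and 0.885, 0.709, 61.2 and 0.347 in IL-2-KO, so the other 6 libraries held 6.15 to 18.1 reads each. Itgax (chr7:128129526-128150657), the CD11c integrin chain used to define dendritic cells, was at 2.60, 6.995, 2.19 and 1.63 CPM in WT and 5.23, 6.78, 32.2 and 4.25 in IL-2-KO. WT replicate 2 was thus only just above IL-2-KO replicate 2 for Itgax. Tyrobp (chr7:30413782-30417582), the signalling adaptor DAP12 of myeloid and natural killer receptors, was at 2.40, 11.9, 2.59 and 1.63 CPM in WT and 2.28, 2.23, 34.8 and 2.18 in IL-2-KO. Lst1 (chr17:35185095-35188440), a small leukocyte protein gene of the MHC region, was at 3.47, 5.39, 3.28 and 4.64 CPM in WT and 3.89, 3.86, 23.7 and 2.29 in IL-2-KO. For Lst1 WT replicate 2 was within reach of WT replicate 4, and IL-2-KO replicate 3 alone stood far from the rest.

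**Figure D1:**
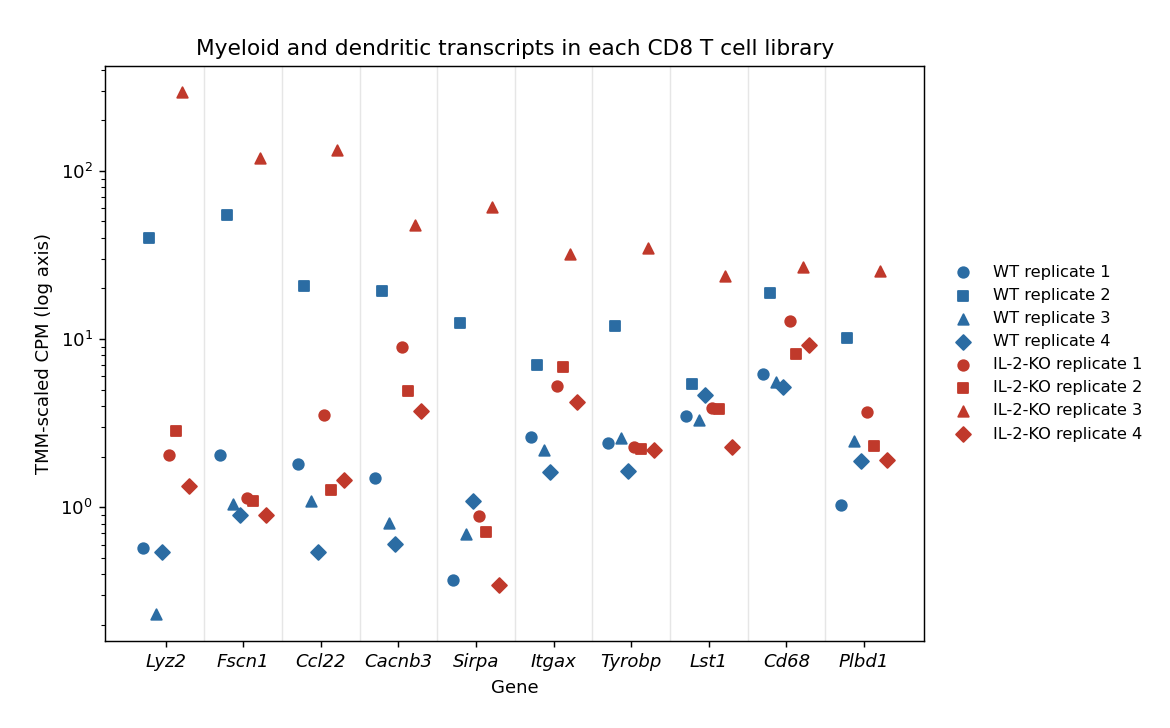
Level of each of the 10 transcripts in each of the 8 libraries, as TMM-scaled CPM on a log axis; each point is 1 library, blue for WT and red for IL-2-KO, with the marker shape giving the replicate number. IL-2-KO replicate 3 (red triangles) is highest for all 10 genes, from 23.7 for Lst1 to 296 for Lyz2, and WT replicate 2 (blue squares) is second for all 10.

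WT replicate 2 and IL-2-KO replicate 3 were each above all 6 other libraries for 10 of the 10 transcripts, which the choice of genes fixes, and for 894 of all 11723 genes (7.63%). Over the mean of the other 3 WT libraries, WT replicate 2 was 89.4-fold higher for Lyz2, 41.1-fold for Fscn1, 19.8-fold for Cacnb3, 17.97-fold for Ccl22 and 17.3-fold for Sirpa. The ratios were 5.64 for Plbd1, 5.38 for Tyrobp, 3.31 for Cd68, 3.27 for Itgax and 1.42 for Lst1. In IL-2-KO replicate 3 the ratio was 142 for Lyz2, 115.0 for Fscn1, 94.7 for Sirpa and 64.1 for Ccl22. Lower ratios there were 15.6 for Tyrobp, 9.605 for Plbd1, 8.12 for Cacnb3, 7.09 for Lst1, 5.94 for Itgax and 2.66 for Cd68. The medians over the 10 genes were 11.5 and 12.6, and over all genes 0.996 and 1.011. The rule of 3-fold and a level of at least 5 was met in both libraries by 8 of the 10, beside 62 genes (0.529%) of the table. Lst1 missed it in WT replicate 2 and Cd68 in IL-2-KO replicate 3.

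**Figure D2:**
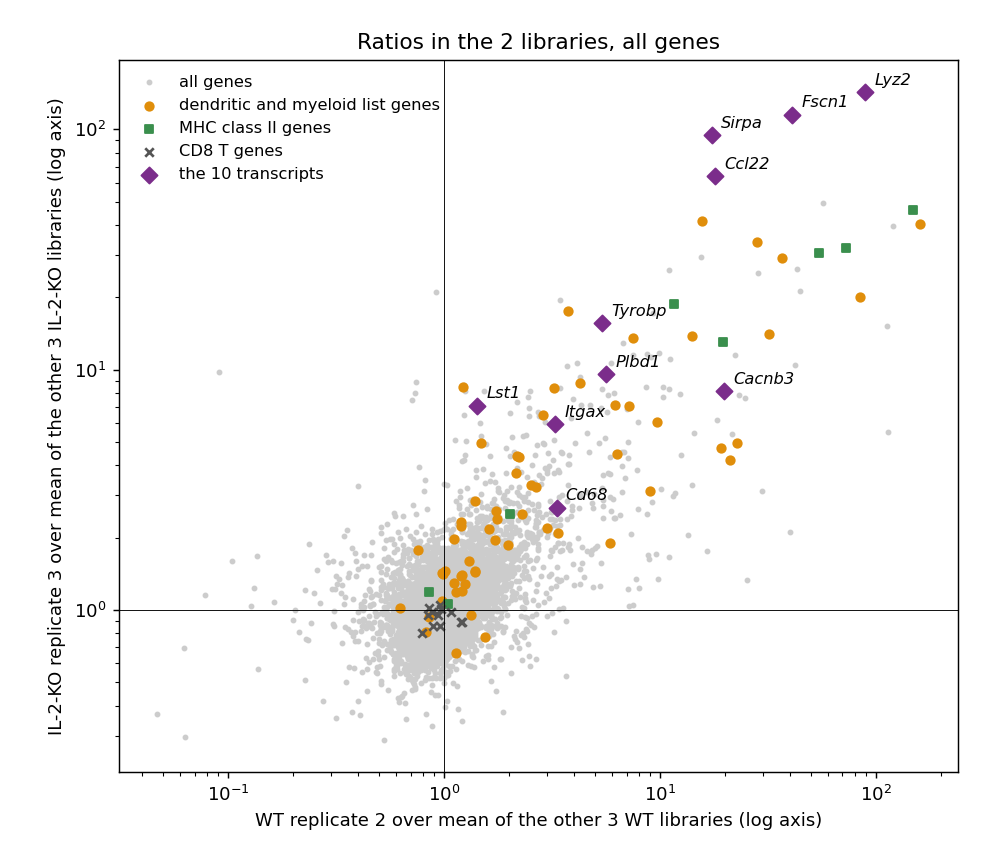
Ratio of each gene in WT replicate 2 to the mean of the other 3 WT libraries (x, log axis) and in IL-2-KO replicate 3 to the mean of the other 3 IL-2-KO libraries (y, log axis), 1 point per gene; purple diamonds are the 10 transcripts, orange points the other dendritic and myeloid marker genes, green squares MHC class II genes and crosses CD8 T cell genes. The 10 transcripts lie up and right of 1 on both axes, with Lyz2 at 89.4 and 142, while the CD8 T cell genes lie near 1 on both.

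The 2 libraries did not carry the 10 transcripts in the same proportions. IL-2-KO replicate 3 had 7.40 times the Lyz2 and 6.51 times the Ccl22 of WT replicate 2, 4.94 times the Sirpa, 4.60 times the Itgax and 4.40 times the Lst1. For Tyrobp the ratio between the 2 libraries was 2.93, for Plbd1 and Cacnb3 2.49, for Fscn1 2.19 and for Cd68 1.43. With the mean of the other libraries of the genotype taken off first, the ratio ran from 1.28 for Cd68 and 2.23 for Fscn1 to 6.79 for Ccl22, 7.43 for Lyz2 and 12.8 for Lst1, whose excess in WT replicate 2 was small. Fscn1 was thus the most abundant of the 10 in WT replicate 2 before length is considered, and Lyz2 in IL-2-KO replicate 3. There is 1 such library per genotype, so this difference has no replicate check.

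Of the summed level over the 8 libraries, these 2 held 97.8% for Lyz2, 96.1% for Fscn1, 94.7% for Sirpa and 94.1% for Ccl22. They held 77.8% for Tyrobp, 76.5% for Cacnb3, 72.7% for Plbd1, 63.3% for Itgax, 57.6% for Lst1 and 49.1% for Cd68. The median over the 10 was 77.2%, over all genes 25.1%, and an even spread would give 25%. The genes therefore formed a series from nearly all of the transcript in the 2 libraries to about as much outside them as in them. Cd68, Lst1 and Itgax, at the lower end, had 5.19 to 12.9, 2.29 to 4.64 and 1.63 to 6.78 CPM in the other 6 libraries.

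**Figure D3:**
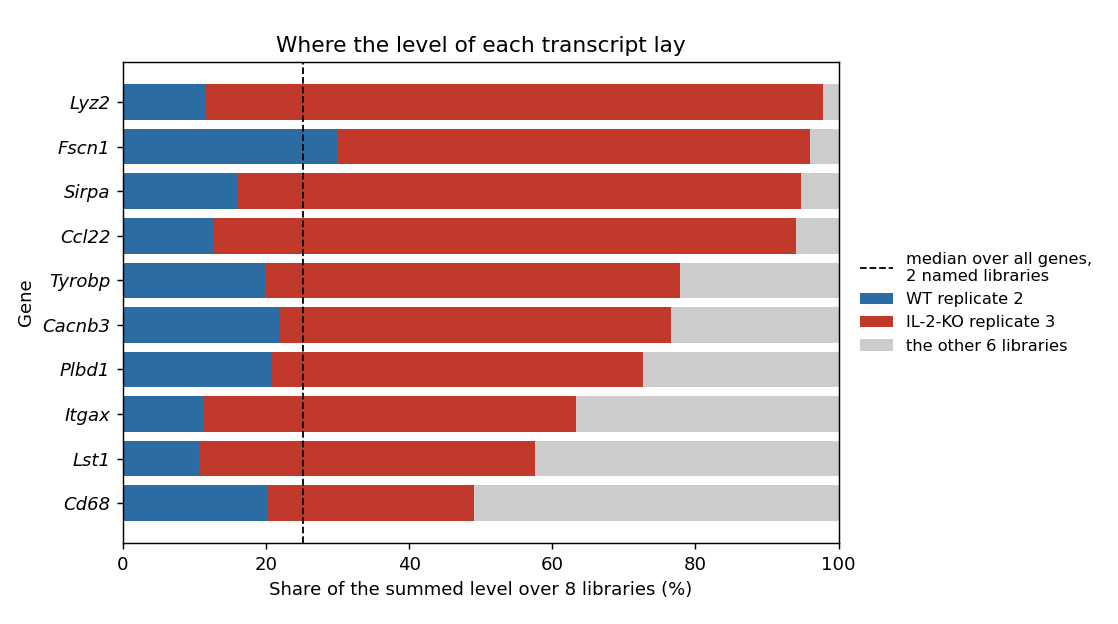
Share (%) of each transcript's summed level over 8 libraries that lay in WT replicate 2 (blue), IL-2-KO replicate 3 (red) and the other 6 libraries (grey); the dashed line is the median over all genes for the 2 named libraries together, 25.1%. The coloured share runs from 97.8% for Lyz2 to 49.1% for Cd68, and the red part is the larger for all 10.

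Divided by exon length, the order of the levels was led by Lyz2 in both libraries, at 30.4 CPM per kb in WT replicate 2 and 225 in IL-2-KO replicate 3. Tyrobp was second in both, at 21.1 and 61.8 CPM per kb. Fscn1 followed in WT replicate 2, at 20.4 CPM per kb against 44.7 in IL-2-KO replicate 3, and Ccl22 in IL-2-KO replicate 3, at 60.4 against 9.28. Itgax was lowest in both, at 1.61 and 7.43 CPM per kb. In the other libraries the order was different: Lst1 led there, with means of 9.15 CPM per kb in WT and 8.06 in IL-2-KO, followed by Cd68 (4.49 and 8.01) and Tyrobp (3.91 and 3.95), while Lyz2 was at 0.340 and 1.58 and Sirpa at 0.169 and 0.153. Lst1 and Tyrobp have the shortest exon lengths of the 10, 415 and 564 bases, for which the level per kb depends most on the gene model.

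Several of the genes lie close to genes that T cells express strongly. The labels name a stranded kit, and the strand setting of the counting was not stated. Hcst, the adaptor DAP10, lies 129 bases from Tyrobp and was at 89.4 to 140.8 CPM in all 8 libraries. Eif4a1 lies 765 bases from Cd68 (313 to 438 CPM) and Ddx23 842 bases from Cacnb3 (145 to 168 CPM). Without that setting, reads that run on from a close neighbour cannot be told apart from a gene's own. The highest library of each neighbour was less than 2 times its lowest.

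The receptors and partners of these proteins divided into those of T cells and those of myeloid cells. The kinase Syk, which acts below Tyrobp in myeloid cells, was at 6.74 and 25.8 CPM in WT replicate 2 and IL-2-KO replicate 3 and at 0.115 to 1.21 in the other 6. Its T cell relative Zap70 was at 279 to 333 CPM in all 8. The chains that pair with or resemble Itgax split less clearly. Itgb2, its partner, was at 507 to 633 CPM and Itgal, the LFA-1 chain of T cells, at 547 to 991. Itgam, the CD11b chain, was at 4.32 and 14.0 in the 2 libraries and at 2.47 to 3.84 elsewhere. In WT replicate 2 Itgam was thus only just above WT replicate 1 (3.84). Cd47, the ligand of Sirpa, was at 212 to 314 CPM in all 8 libraries. The other beta subunit genes did not follow Cacnb3: Cacnb1 was at 4.57 to 7.96 CPM, Cacnb2 at 59.6 to 84.2 and Cacnb4 at 5.03 to 10.4 over all 8. Plbd2, the paralog of Plbd1, was at 30.3 to 37.2 CPM. Next to Lst1 in the MHC region, Ltb, a lymphotoxin of lymphocytes, was at 309 to 533 CPM in all 8, and Aif1, a myeloid calcium-binding protein gene, was at 8.34 and 43.0 in the 2 libraries and 0.391 to 1.88 elsewhere.

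The genes most like 3 of the transcripts were found by the overlap of their shares over the 8 libraries, a description in which 100% would mean the same profile and in which 2 libraries carry most of the weight. Fscn1 was most like the MHC class II genes: H2-Ea (96.6%), H2-Aa (96.4%), H2-Eb1 (94.4%) and the invariant chain gene Cd74 (93.6%), with Csf2rb2 (96.2%), a cytokine receptor subunit, and Mpeg1 (92.5%), a pore-forming protein gene of phagocytes. H2-Aa was at 107 CPM in WT replicate 2, 220.3 in IL-2-KO replicate 3 and 0.115 to 7.91 in the other 6. Lyz2 was most like Cybb (93.1%), the phagocyte NADPH oxidase gene, Cxcl9 (91.7%), an interferon-induced chemokine gene, Aif1 (90.6%), Csf2rb (88.7%), Serpina3g (86.4%) and Syk (84.9%), all weighted to IL-2-KO replicate 3. Cybb was at 5.82 CPM in WT replicate 2, 40.7 in IL-2-KO replicate 3 and 0.0576 to 1.74 in the other 6. Tyrobp was most like Ifi30 (97.2%), the lysosomal thiol reductase gene of antigen-presenting cells, Lyn (94.7%), a Src family kinase gene of B and myeloid cells, Ccrl2 (93.9%), Tbc1d8 (93.2%), H2-DMb2 (91.9%) and Ogfrl1 (91.3%). Between the 10 transcripts themselves the overlap of the 45 pairs ran from 42.8% to 95.4% with a median of 76.4%. The median overlap of a single transcript with all genes ran from 26.0% to 74.2%.

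Markers of particular cell types were then read in the 2 libraries. Every listed gene reached about 1 CPM in at least 3 of the 8 libraries, so a marker present in WT replicate 2 and IL-2-KO replicate 3 alone could have no value here. Of 156 marker genes in 11 dendritic and myeloid lists (the 10 transcripts left out), 60 had a value, and 24 of these were at 5 CPM or more in each of the other 6 libraries too. Both of the 2 libraries were above all other 6 for 29 of the 60 (48.3%, against 7.63% of all genes). Clec9a, Cd209a, Flt3, Siglech, Csf1r, Adgre1, C1qa, Cd14, S100a8, Ly6g, Mcpt8 and Cd207, which define single dendritic, macrophage, monocyte, granulocyte or Langerhans cell types, have no value here.

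Both of the 2 libraries were above all other 6 for 6 of the 8 MHC class II genes with a value. With 8 of 9 genes listed, their summed level was 409 CPM in WT replicate 2 against 78.3 to 103 in the other WT libraries, and 865 in IL-2-KO replicate 3 against 70.8 to 121. Cd74 was at 101 and 279 CPM in the 2 libraries and 1.15 to 13.5 elsewhere. H2-Oa, a chain of the class II-like molecule H2-O, was at 34.5 and 42.3 within a range of 28.4 to 47.6. H2-Ob was not higher in WT replicate 2 either: the WT mean was 36.2 CPM with that library and 37.6 without. Its IL-2-KO mean was 17.1 with replicate 3 and 16.4 without. MHC class II is shared by dendritic cells, macrophages and B cells, so the list does not tell these apart.

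The list of mature migratory dendritic genes had smaller ratios than Fscn1, Ccl22 and Cacnb3. With 10 of 20 genes listed its sum was 367 CPM in WT replicate 2 against 310.3 to 332 in the other WT libraries, and 748 in IL-2-KO replicate 3 against 434 to 547. The sum rests on genes that were also high elsewhere: Traf1 was at 90.7 to 221 CPM over all 8, Cd274 at 71.5 to 184 and Relb at 55.7 to 141, and 5 of the 10 were at 5 or more in each of the other 6 libraries. By the median of single genes the ratio was 1.59 in WT replicate 2 and 2.04 in IL-2-KO replicate 3. Ccl17, the chemokine gene next to Ccl22 in function, has no value here.

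For conventional dendritic cells of type 1, which cross-present antigen to CD8 T cells, 7 of 12 genes were listed. Their sum was 93.4 CPM in WT replicate 2 against 27.5 to 37.7, and 218 in IL-2-KO replicate 3 against 64.9 to 93.3. Xcr1, their chemokine receptor gene, was at 5.56 and 5.11 CPM in the 2 libraries and 0.559 to 2.34 in the other 6, and Irf8, a transcription factor gene present in all 8 libraries, was at 48.7 and 115 against 11.8 to 66.5. Of the type 2 list 1 gene of 10 was listed and of the Langerhans list 2 of 4. Among pan-dendritic genes (6 of 10 listed), Zbtb46, a dendritic transcription factor gene, was at 1.601 and 2.51 CPM against 0.0576 to 1.014, and Cst3, which encodes cystatin C, at 60.8 and 107.8 against 25.9 to 31.3. The ratios of sums of that list were 0.987 and 1.145, with Dpp4, a gene that T cells express, at 360 to 491 CPM over all 8 libraries. The plasmacytoid list (4 of 10 listed) had ratios of sums of 1.03 and 1.14.

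Macrophage, monocyte and granulocyte lists were nearly empty. The macrophage list had 2 of 20 genes: Apoe was at 38.7 and 33.2 CPM in the 2 libraries against 6.63 to 15.6, and Hmox1 at 3.62 and 17.7 against 0.479 to 2.88. The monocyte list had 3 of 16, with ratios of sums of 0.669 and 0.967 and medians of single genes of 1.006 and 1.02, and its leading genes Ms4a6c (121 to 237 CPM) and Ccr2 (4.87 to 105.5) were present in all libraries. Of the neutrophil list 2 of 16 were listed, and S100a9 was at 6.07 and 5.38 CPM against 0.241 to 1.08. The other, G0s2, was at 9.52 and 8.66 CPM against 6.62 to 15.2, and the ratios of sums were 1.74 and 1.006. Genes shared by myeloid cells (21 of 30 listed) summed to 473 CPM in WT replicate 2 against 288 to 325, and to 1043 in IL-2-KO replicate 3 against 413 to 467. Of these 21 genes, 10 were under 5 CPM in each of the other 6 libraries and 7 were at 5 or more in each of them, among them the protease genes Ctss (96.4 to 225), Ctsb (98.6 to 196) and Ctsz (40.2 to 104.7).

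The summed CD4 and regulatory T cell list and single markers of other lymphocytes were higher in the same 2 libraries, and other markers were not. Cd4 was at 38.6 and 45.5 CPM in WT replicate 2 and IL-2-KO replicate 3 and 0.461 to 2.48 in the other 6. CD4 is carried by helper T cells and by some dendritic cells. The CD4 and regulatory T cell list (7 of 7 listed) summed to 109 CPM in WT replicate 2 against 27.1 to 32.1. In IL-2-KO replicate 3 it summed to 270 against 84.7 to 92.3, and the ratios of sums were 3.61 and 3.07. For 4 of these 7 genes both libraries were above all other 6. Ctla4 was at 30.8 and 171 CPM against 5.79 to 66.7. Foxp3 and Ikzf4 were not higher: their group means were lower with the 2 libraries than without. For Foxp3 the WT mean was 4.16 CPM with replicate 2 and 4.22 without. Its IL-2-KO mean was 2.98 with replicate 3 and 3.08 without. For Ikzf4 these means were 4.95 and 5.39 in WT and 6.79 and 7.25 in IL-2-KO. The B cell receptor gene Cd79a was at 9.06 and 12.8 CPM against 2.18 to 4.94, while the B cell list as a whole (7 of 17 listed) had ratios of sums of 1.16 and 1.57. The natural killer list (6 of 12 listed) had ratios of sums of 1.03 and 0.874, and the 1 listed gamma-delta T cell gene, Sox13, had ratios of 0.304 and 1.22. For the CD8 T cell list, 12 of 12 listed, the ratios of sums were 0.945 and 0.920, and Cd8a was at 1679 and 1480 CPM against 1528 to 1979. The share of cells of each kind was not measured.

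**Figure D4:**
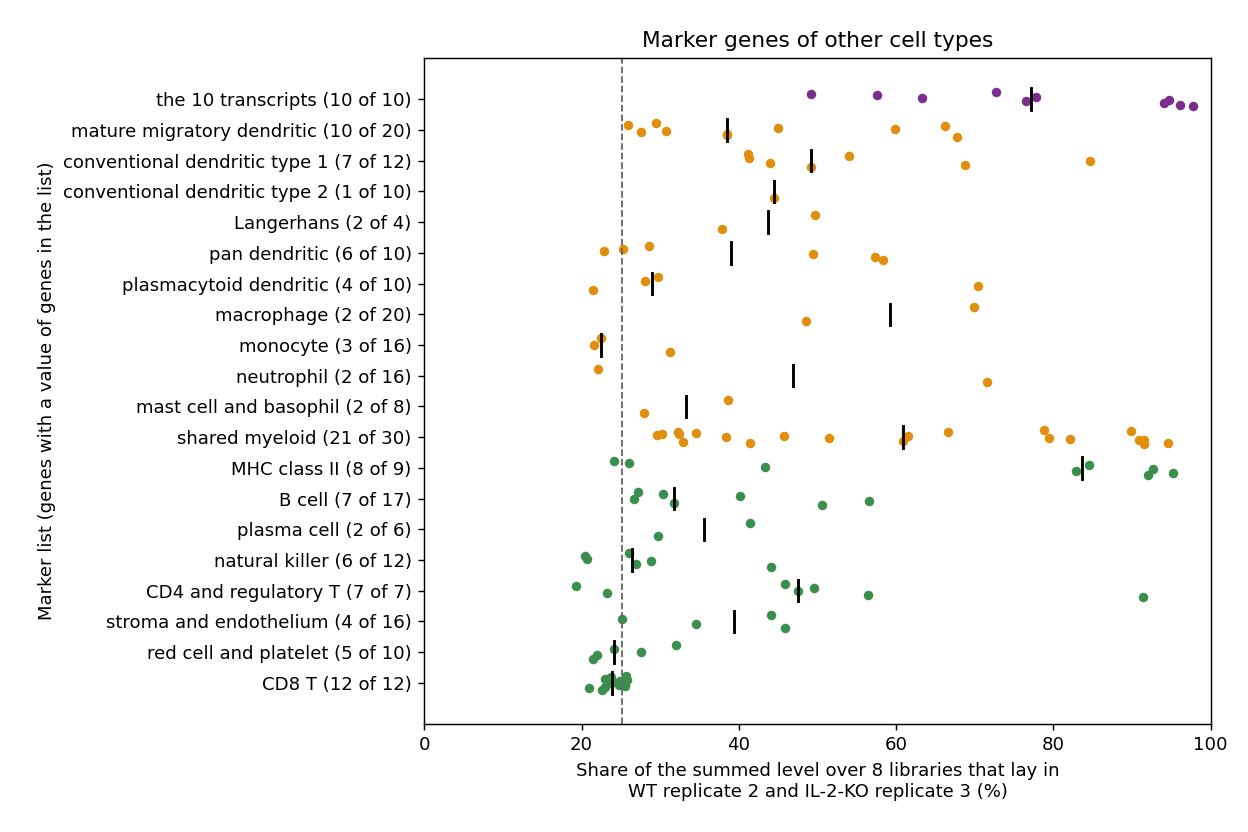
Share (%) of each marker gene's summed level over 8 libraries that lay in WT replicate 2 and IL-2-KO replicate 3, 1 line per list and 1 point per gene; the black bar is the list's median, the dashed line the median over all genes (25.1%), and the counts give genes with a value of genes in the list. The 10 transcripts, MHC class II and shared myeloid genes reach furthest right, and the CD8 T cell genes lie around the dashed line.

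The comparison of the design, IL-2-KO against WT, was read for the 10 transcripts with all 8 libraries and with 6, leaving out the 2 high ones. With all 8, limma called none of the 9 that entered the test at an adjusted p under 0.05, against 2211 of 11530 genes (19.2%, 11.1% higher and 8.03% lower), and 1 of the 9, Itgax, had an unadjusted p under 0.05. Sirpa did not reach 1 CPM in 4 libraries and was left out; without that filter its log2 change was 0.51 (limma adjusted p = 0.825). For Lyz2, Fscn1, Ccl22, Cacnb3, Sirpa, Tyrobp and Plbd1 the SD was larger than the mean in both groups. Lyz2 was at 10.3 ± 19.8 CPM in WT and 75.5 ± 146.8 in IL-2-KO (n = 4 each), a log2 change of 1.79 with a 95% confidence interval from -1.99 to 5.56. Fscn1 was at 14.6 ± 26.6 and 30.7 ± 59.2, a log2 change of 0.13 (-3.32 to 3.58). Without IL-2-KO replicate 3 the log2 change of Lyz2 was 0.063, and without WT replicate 2 it was 3.14, uncalled in both cases. Without IL-2-KO replicate 3 alone the log2 change turned negative for Fscn1 (-1.44), Tyrobp (-0.52), Ccl22 (-0.31), Lst1 (-0.30) and Plbd1 (-0.11), with 0 of the 9 called. Log2 changes are on the scale of log2(CPM + 0.5), which understates the change of low genes.

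With both high libraries left out, 4 of the 9 transcripts were higher in IL-2-KO and 0 were lower. Of all genes 18% were then called, 10.7% as higher and 7.34% as lower. Lyz2 rose from 0.447 ± 0.188 to 2.08 ± 0.754 CPM (n = 3 each), a log2 change of 1.42 (SE 0.27, limma adjusted p = 0.00926), on 4 to 9.5 reads per WT library and 24 to 47.3 per IL-2-KO library. Lyz2 was under 1 CPM in each of these WT libraries, so it entered the test through the IL-2-KO libraries and WT replicate 2, and a gene admitted in this way could hardly differ in the other direction. Cacnb3 rose from 0.969 ± 0.469 to 5.89 ± 2.74 CPM, by 2.08 (SE 0.33, limma adjusted p = 0.00370). In WT replicates 3 and 4 Cacnb3 was at 0.806 and 0.603 CPM, so it too could not have entered the test without IL-2-KO libraries. That limits how far it could have differed in the other direction. Itgax rose from 2.14 ± 0.490 to 5.42 ± 1.28 CPM, by 1.16 (SE 0.22, limma adjusted p = 0.00844). Cd68 rose from 5.65 ± 0.494 to 10.07 ± 2.48 CPM, by 0.76 (SE 0.18, limma adjusted p = 0.0234). For these 4 genes each IL-2-KO library was above each WT library, as for 20.1% of all genes, with 19.3% the other way round. Leaving out 1 more library at a time, an alternative chosen after seeing the data, kept Lyz2, Cacnb3 and Itgax called in 6 of 6 cases, and Cd68 lost its call without WT replicate 1 (limma adjusted p = 0.0604), 3 (0.0909) or 4 (0.0987). Of all genes 7.96% to 34.3% were called in these cases, with 34.3% when IL-2-KO replicate 1 was left out.

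The other 5 were not called in these 6 libraries. Their log2 changes were 0.62 for Ccl22 (95% confidence interval -0.25 to 1.496), 0.46 for Plbd1 (-0.22 to 1.14), 0.03 for Tyrobp (-0.41 to 0.47), -0.18 for Lst1 (-0.69 to 0.34) and -0.20 for Fscn1 (-0.78 to 0.38), with limma adjusted p from 0.296 to 0.931. Tyrobp lay at 1.63 to 2.59 CPM in WT and 2.18 to 2.28 in IL-2-KO, and the interval leaves changes of either sign. Of the 4 transcripts called, Lyz2 had the highest share in the 2 high libraries and Cd68 the lowest.

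**Figure D5:**
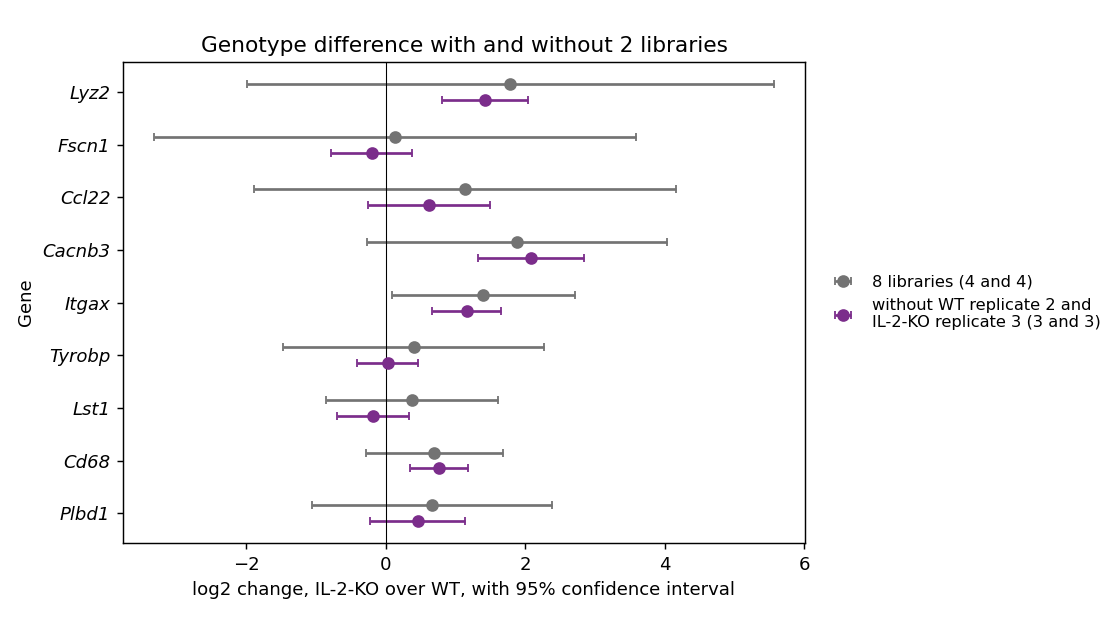
Log2 change of IL-2-KO against WT for the 9 transcripts tested, with 95% confidence intervals from limma, in all 8 libraries (grey, 4 and 4) and in 6 without the 2 high libraries (purple, 3 and 3). Without the 2 libraries the intervals narrow, and those of Lyz2, Cacnb3, Itgax and Cd68 lie above 0.

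Marker genes of several cell types differed between the genotypes in these 6 libraries. Without the 2 libraries, 26 of the 53 dendritic and myeloid list genes tested were higher in IL-2-KO and 2 lower. With all 8 the counts were 17 and 2. Background rates for higher genes were 10.7% without the 2 libraries and 11.1% with all 8. Of the 60 list genes with a value, 24 were at 5 CPM or more in each of these 6 libraries. The counts therefore do not separate transcripts of myeloid or dendritic cells from those of the T cells. Of the 53 genes tested, 9 were under 1 CPM in each remaining WT library, so they entered through other libraries. Of these 9, 6 were called higher, against 20 of the other 44. The 44 are not free of this limit, because a gene under 1 CPM in any WT library needed IL-2-KO libraries to enter. F13a1, at 0.846 to 1.42 CPM in the WT libraries and called higher, was such a gene. The median log2 change of the 53 was 0.54 without the 2 libraries and 0.57 with them, against -0.01 over all genes in both. Of 7 MHC class II genes tested, 4 were higher and 1 lower without the 2 libraries, where Cd74 changed by 1.96 (1.15 to 3.11 CPM in WT, 3.97 to 13.5 in IL-2-KO; limma adjusted p = 0.0176). The 1 lower MHC class II gene was H2-Ob (log2 change -1.18, limma adjusted p = 0.000654). Cybb rose by 1.53 (limma adjusted p = 0.00296) and Irf8 by 1.91 (limma adjusted p = 0.000493). Traf1, Relb and Cd274, which were above 55 CPM in all 8 libraries, rose by 0.71, 0.80 and 0.86. Cd86, a costimulatory gene of the same list, fell by 0.68 on the log2 scale (limma adjusted p = 0.00236), from 65.1 to 40.4 CPM on average. Natural killer markers, several of which activated CD8 T cells carry too, were higher for 5 of 6 tested, with a median log2 change of 1.24, and Gzma, a granzyme gene, rose by 5.45 (limma adjusted p = 3.47e-05). Ccr4, the receptor for Ccl22, rose from 1.499 ± 0.593 to 5.21 ± 0.879 CPM (log2 change 1.54, limma adjusted p = 0.00326). Of these 6 libraries IL-2-KO replicate 1 had the highest Cacnb3, Cd68, Ccl22, Plbd1, Cd74 and H2-Aa, and IL-2-KO replicate 2 the highest Lyz2 and Itgax. The part of other cells in the rises of Lyz2, Cacnb3, Itgax, Cd68 and the list genes was not tested.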

How the data were processed

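Total RNA of sorted CD8 T cells from 4 WT and 4 IL-2-KO samples was sequenced from stranded libraries, per the labels' protocols. The authors deposited 1 table of 11723 genes holding a signal for each library, namely CPM after TMM scaling, per the file headers. GRCm38 and mm10 are the builds in the submitters' processing notes. The tools there are R 3.4.3, limma 3.34.9 and featureCounts, with no roles given. The aligner and the strand setting are not given in the sources used here. The columns summed to 988292 to 1022950 and could not be read as plain CPM, so the planned test for CPM was kept on this signal.

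Reads were recovered from the smallest step of each column. Of low values 53.7% to 65.5% were whole reads and 100% whole hundredths, as fractional counting gives, so no count test was run. A value of 1 stood for 11.9 to 18.6 reads by library, and intervals cover the spread between samples. All 8 columns were matched to samples by title, and no 2 libraries were duplicates. Entrez identifiers were matched to RefSeq on GRCm38 (11651 matched, 72 not), and exon lengths to GENCODE (11512 genes). The series' text calls the samples biological replicates, and p-values measure the spread between them.

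The genotypes were compared on log2(value + 0.5), by limma 3.58.1 under R 4.3.3 with a mean-variance trend, genes of at least 1 in at least 4 of 8 libraries, and Benjamini-Hochberg adjustment over 11530 genes (threshold 0.05). The steps were tested on simulated data. Lists are described by counts and medians, with no list test. The 10 genes, the marker lists and the tests were chosen with earlier results of these data known. Genes named are the 10, the 3 most abundant genes of a list, fixed partners, paralogs and defining markers, and the 6 genes most like Fscn1, Lyz2 and Tyrobp among those with at least 5 in a library. Eif4a1 and Ddx23 are named as close neighbours. Cd86, Foxp3, Ikzf4, H2-Ob and the genes under the last heading were named after their values were seen. Alternatives were other pseudocounts (0.1 and 2), filters, scalings, no trend, the replicate number as a block, and leaving out libraries.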

Additional observations from a re-analysis of the deposited data

Results flagged for a closer look

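In groups of 4 libraries, a library stands out when its gap to the nearest other library, divided by the range of the group, passes Dixon's 95% critical value, which chance gives in about 1 in 20 groups. Of 20 groups (10 transcripts in each genotype) 17 had such a library. The genes were chosen for high levels in these 2 libraries, so that chance rate does not hold for them and the count is a description, not a test. In WT the library was replicate 2 each time: Lyz2 at 39.97 CPM, Fscn1 at 54.5, Ccl22 at 20.6, Cacnb3 at 19.2, Sirpa at 12.4, Tyrobp at 11.9, Cd68 at 18.7 and Plbd1 at 10.1. In IL-2-KO it was replicate 3 each time: Lyz2 at 296 CPM, Fscn1 at 119.5, Ccl22 at 134, Cacnb3 at 47.8, Sirpa at 61.2, Itgax at 32.2, Tyrobp at 34.8, Lst1 at 23.7 and Plbd1 at 25.3. Itgax and Lst1 in WT and Cd68 in IL-2-KO did not pass it.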

How the results depend on the processing

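The ratios of the 2 high libraries to the others stayed within the spread when medians replaced means or when levels were scaled to the CD8 T cell genes, except Tyrobp in IL-2-KO replicate 3, which moved from 15.6 to 17.0. By the median of single genes in place of the ratio of sums, MHC class II gave 15.6 and 15.8 (4.72 and 8.93 by sums) and shared myeloid genes 3.22 and 4.46 (1.53 and 2.34). The neutrophil list gave 5.41 and 3.36 (1.74 and 1.006) and the pan-dendritic list 1.27 and 2.16 (0.987 and 1.145). The macrophage list gave 4.34 and 5.23 (2.66 and 4.07), and the CD4 and regulatory T cell list 3.33 and 2.84 (3.61 and 3.07). For IL-2-KO against WT, 0 of the 9 transcripts were called with all 8 libraries, 4 without both high libraries (28 list genes then) and 0 to 1 when 1 library was left out (Cacnb3, limma adjusted p = 0.0260, without WT replicate 2). Without the 2 high libraries, leaving out 1 more gave 3 to 4, with 7.96% to 34.3% of all genes called. Leaving out 1 library gave 1285 (without WT replicate 3) to 2205 genes called against 2211, and 12 to 24 dendritic and myeloid list genes against 19. Without the 4 libraries with the fewest sorted cells (0.4 to 1.3 in units of 1000000) 384 genes and 9 list genes were called. This setting leaves 2 libraries a group, and it keeps the high WT replicate 2 but leaves out the high IL-2-KO replicate 3. There the log2 change was negative for Lyz2 (-1.17), Fscn1 (-2.87), Ccl22 (-1.38), Tyrobp (-1.12), Lst1 (-0.15), Cd68 (-0.075) and Plbd1 (-0.24), all uncalled. Further sign changes, all uncalled, were Fscn1 under quantile normalization (-0.0084), without both high libraries (-0.20), and without WT replicate 1 (-0.11), 3 (-0.35) or 4 (-0.39); Lst1 without both high libraries (-0.18); and, without IL-2-KO replicate 3, Fscn1 (-1.44), Ccl22 (-0.31), Tyrobp (-0.52), Lst1 (-0.30) and Plbd1 (-0.11). The highest values with 1 library left out were 3.14 for Lyz2 (lowest 0.063, without IL-2-KO replicate 3), 1.37 for Fscn1, 2.07 for Ccl22, 0.95 for Tyrobp and 1.23 for Plbd1 without WT replicate 2, and 0.74 for Lst1 without IL-2-KO replicate 4. The causes were not tested. Quantile normalization moved the share of called genes that were higher in IL-2-KO from 58.1% to 49.0%. With the replicate number as a block, 1397 genes, 16 list genes and 0 of the 9 transcripts were called. Correlations of deviations between same-numbered libraries were 0.08, -0.53, -0.40 and 0.39, with no common sign. Such values cannot show whether same-numbered libraries shared a litter, day or run. Sirpa, Lyz2, Ccl22 and Fscn1 had 4 to 53 reads in each of the other 6 libraries, which limits the precision there.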

Other observations

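Of the 62 genes at least 3-fold higher in both WT replicate 2 and IL-2-KO replicate 3, 8 were of the 10 transcripts, 17 were in the marker and partner lists and 37 in none of them. The following were named after their values were seen. Of the 37, the MHC class II gene H2-Ea was at 61.9 and 138 CPM, the chemokine gene Cxcl16 at 10.5 and 21.99, the kinase gene Lyn at 8.30 and 22.1, and the transcription factor genes Zeb2 at 7.42 and 25.3 and Irf5 at 5.14 and 18.5. Others were the transcription factor genes Fosb at 166 and 258 CPM, Nr4a2 at 39.4 and 77.4 and Maff at 27.6 and 21.9, the phosphatase gene Dusp1 at 260.3 and 239 and the kinase gene Sik1 at 202 and 151. Whether these transcripts came from the T cells or from other cells was not tested.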
